A study of Homo sapiens with 4 samples.

Results

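CDK inhibitors and D-type cyclins set the pace of the first gap phase of the cell cycle, and 10 of these genes were examined here. They were taken by name from the 19739 coding genes of the deposited table, and all 10 were found. They are the CIP/KIP inhibitors CDKN1A, CDKN1B and CDKN1C, the INK4 inhibitors CDKN2A, CDKN2B, CDKN2C and CDKN2D, and the D-type cyclins CCND1, CCND2 and CCND3. Of these, 9 reached 1 FPKM (fragments per kilobase of transcript, scaled to library depth) in at least 1 library, and CCND2 did not.

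D-type cyclins bind the kinases CDK4 and CDK6, and the complexes phosphorylate the retinoblastoma protein, which releases E2F factors to transcribe the genes of DNA replication. INK4 proteins bind CDK4 and CDK6 and block their pairing with cyclin D. CIP/KIP proteins bind cyclin and kinase together and block CDK2 complexes above all. CDKN1A is a classic target of p53, and in liver it is known to limit division of damaged hepatocytes, while CCND1 is known as a growth-factor-driven cyclin of regenerating liver and liver cancer.

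RNA was sequenced from cells labelled HepG2 and Huh7, the names of 2 established lines grown from human liver tumours, cultured in the same medium. Each line was sequenced untreated and after 24 h of RSL3@O2-ICG NBS applied with low-frequency ultrasound, so there were 4 groups of 1 library. RSL3 is an inhibitor of GPX4 and an inducer of ferroptosis, the iron-dependent death that follows lipid peroxidation. No group analysed here had ultrasound, carrier or RSL3 alone, so their parts cannot be told apart. With 1 library a group no value has an SD, no p was computed within a line, and no difference between lines was tested.

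The libraries held an inferred 22900000 to 26500000 fragments. All 9 hepatocyte markers checked, ALB, AFP, FGA, TF, HNF4A, FOXA2, APOA1, TTR and SERPINA1, were under 1 FPKM in both libraries labelled HepG2, summing to 0.528 FPKM untreated and 0.429 FPKM treated. In Huh7 all 9 were at 1 FPKM or more, summing to 1637 and 1252 FPKM. The libraries labelled HepG2 therefore go against what is known of that line and are named by their label throughout. Fibroblast markers (6 genes) summed to 8.87 and 9.5 FPKM under the HepG2 label and to 33.2 and 8.65 FPKM in Huh7, where LUM made up most of it. Blood cell markers (6 genes) summed to 1.59 and 21.6 FPKM under the HepG2 label, most of it CD68, and to 15.7 and 5.14 FPKM in Huh7. Endothelial markers (5 genes) summed to between 0.112 and 1.15 FPKM, and the part of any of these in the results was not tested.

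The authors' deposited enrichment tables list 2 of the 10 genes, CDKN1A and CCND3, for treated against untreated cells of both lines, and CCND1 for Huh7 as well. The stretches before the annotated starts of the pair listed in both lines are shown here because the genes differed in direction: CDKN1A was higher in one line and lower in the other, and CCND3 lower in both. RefSeq promoters (GRCh38.p14) were matched for 7 of the 10 genes; CCND1, CCND2 and CDKN1C were not matched. The CDKN1A stretch is chr6:36678560-36678657 on the plus strand, from 154 to 57 bases before the start. The CCND3 stretch is chr6:41941849-41942058 on the minus strand, from 250 to 41 bases before the second of its 3 listed starts. Both are limited to bases outside annotated exons. Capitals mark GC boxes (GGGCGG, or CCGCCC on the other strand) and CCAAT boxes (CCAAT or ATTGG).
CDKN1A: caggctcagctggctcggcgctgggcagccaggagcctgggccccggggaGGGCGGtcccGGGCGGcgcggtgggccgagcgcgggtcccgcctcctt
CCND3: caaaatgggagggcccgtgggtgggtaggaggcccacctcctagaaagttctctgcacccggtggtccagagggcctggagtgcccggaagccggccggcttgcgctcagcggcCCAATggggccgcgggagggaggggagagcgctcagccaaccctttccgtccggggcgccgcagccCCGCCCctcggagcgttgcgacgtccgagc
The CDKN1A stretch holds 2 GC boxes and no CCAAT box, and the CCND3 stretch holds 1 of each. These counts depend on the stretch and start shown. The full 250 bases hold 4 GC boxes for CDKN1A. For the 3 CCND3 starts, in order of position, they hold 0, 2 and 5 GC boxes and 1, 1 and 0 CCAAT boxes. A link between these letters and the directions of the genes was not tested. Over the full 250 bases before the start, a GC box was found before 9 of the 12 listed starts of the 7 matched genes, and before 42.6% of the 35116 starts in the table. A CCAAT box was found before 5 of the 12, and before 32.0% of all starts. The letters TATAAA (10.7% of starts), the AP-1 letters TGACTCA (4.20%), the cyclic AMP response letters TGACGTCA (1.65%) and the amino acid response letters TGATGNAA (3.14%) were found for none of the 7, each searched on both strands. The E-box CACGTG (6.34% of starts) was found for CDKN2C, and the E2F letters TTTNNCGC (5.92%) for CDKN2D. A match describes letters only, and the p53 sites known for CDKN1A lie further upstream than this window.

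**Figure D1:**
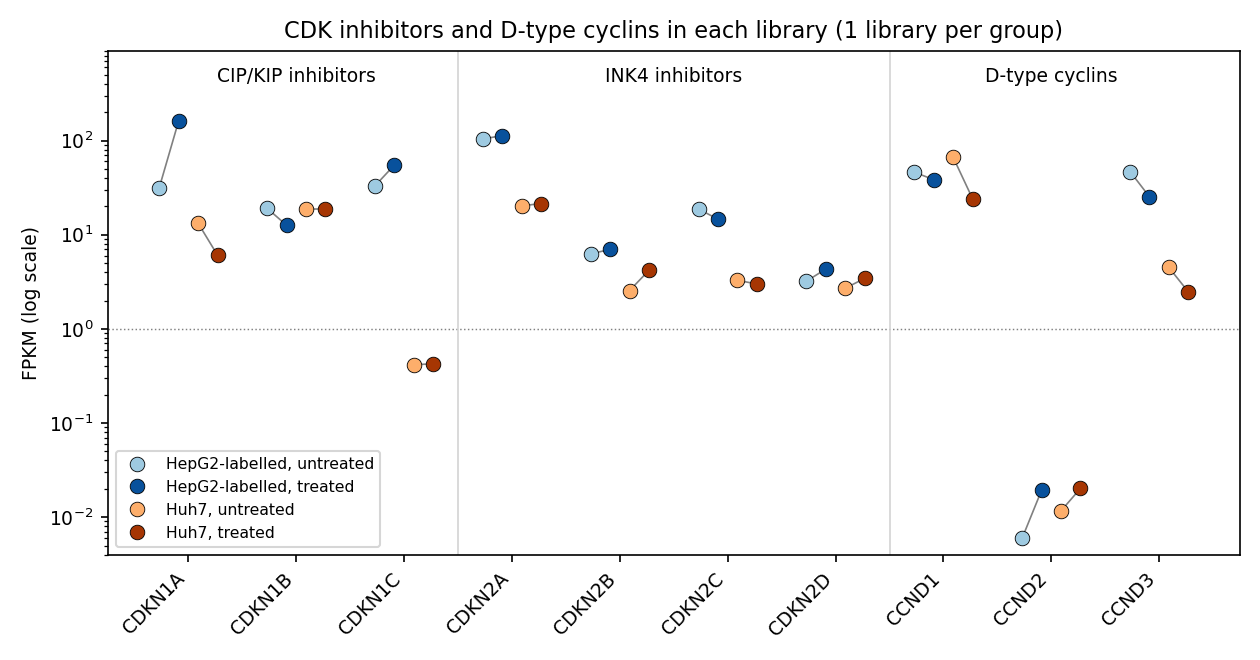
FPKM (log scale) of the 10 genes in each of the 4 libraries; every point is 1 library and grey lines join untreated and treated cells of a line. CDKN1A runs from 31.6 up to 162 FPKM under the HepG2 label and from 13.3 down to 6.07 FPKM in Huh7, and CCND2 lies under 0.03 FPKM throughout.

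CDKN1A, which encodes p21, was higher after treatment under the HepG2 label and lower after it in Huh7. The gene (ENSG00000124762; chromosome 6, 36676460 to 36687339) measured 31.6 FPKM before and 162 FPKM after treatment under the HepG2 label, and 13.3 FPKM before and 6.07 FPKM after it in Huh7. Both libraries labelled HepG2 lay above both Huh7 libraries. An untreated and a treated library are not repeats of a line, and genes with this order were not counted over all genes. With 1 FPKM added before taking log2, a step that shrinks ratios of low genes, treated cells were 5.00-fold higher under the HepG2 label (log2 ratio 2.32) and 2.02-fold lower in Huh7 (log2 ratio -1.01). These levels rest on about 1724, 7925, 740 and 293 fragments, and counting error alone gives the Huh7 ratio a 95% half-width of 0.20 on the log2 scale, so it lies at the 2-fold line within counting error. In untreated cells CDKN1A ranked 5 among the 10 genes under the HepG2 label, and after treatment it ranked 1, above 98.6% of coding genes. In bulk RNA a change in every cell and a change in the number of cells with the transcript cannot be told apart.

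CDKN1A was 1 of 9 genes at 1 FPKM or more and the only one at least 2-fold higher under the HepG2 label, where 6.7% of the 11843 genes considered were, and none of the 9 was 2-fold lower, against 2.43% of genes. In Huh7, 2 of the 8 genes at 1 FPKM or more were at least 2-fold lower, CCND1 and CDKN1A, against 2.19% of 11945 genes, and none was 2-fold higher, against 3.88%. The median log2 ratio of the genes was 0.12 under the HepG2 label and -0.05 in Huh7, beside 0.09 and 0.10 over all genes considered. Of 10758 genes considered in both lines, 15 were at least 2-fold higher under the HepG2 label and 2-fold lower in Huh7, CDKN1A included. A further 12 had the reverse order, 77 were 2-fold higher in both lines and 33 were 2-fold lower in both.

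CDKN1B encodes p27, a brake on CDK2 that is controlled largely by protein breakdown. It was lower after treatment under the HepG2 label, short of 2-fold, and even in Huh7. The gene (ENSG00000111276; chromosome 12, 12715058 to 12722369) measured 19.1 FPKM before and 12.6 FPKM after treatment under the HepG2 label, and 18.7 and 18.8 FPKM in Huh7. The treated library labelled HepG2 was the low one and the other 3 were close together. The log2 ratios were -0.56 (counting half-width 0.16) and 0.00, and in untreated cells the lines differed by a log2 ratio of -0.03.

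CDKN1C, which encodes p57 and is known as an imprinted gene expressed from the maternal copy, divided the lines. The gene (ENSG00000129757; chromosome 11, 2883213 to 2885773) measured 33.1 FPKM before and 55.0 FPKM after treatment under the HepG2 label, and 0.416 and 0.426 FPKM in Huh7, on about 20 and 17 fragments. Untreated Huh7 was 24.1-fold lower on the log2(FPKM + 1) scale and 79.6-fold lower by FPKM itself. Treated cells labelled HepG2 were 1.64-fold higher than untreated ones, short of the 2-fold line. Together, CDKN1A, CDKN1B and CDKN1C summed to 83.8 FPKM untreated and 230 FPKM treated under the HepG2 label, with CDKN1A making up 37.7% and 70.5%. In Huh7 they summed to 32.4 and 25.3 FPKM, with CDKN1B making up 57.8% and 74.3%.

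**Figure D2:**
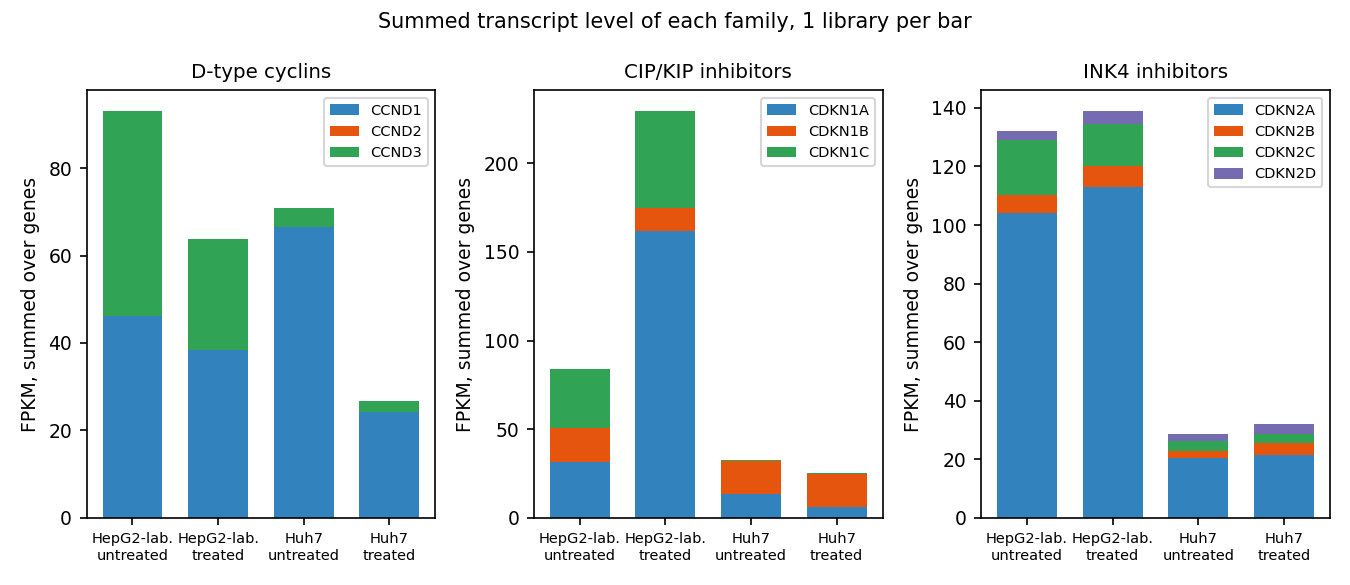
Bars stack the FPKM of the genes of each family in 1 library, with linear axes from 0 that differ between panels. The CIP/KIP sum is highest in treated cells labelled HepG2 (230 FPKM), the INK4 sum is 132 and 139 FPKM there against 28.8 and 32.1 FPKM in Huh7, and the D-type cyclin sum is lowest in treated Huh7 (26.6 FPKM).

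CDKN2A, CDKN2B and CDKN2C were higher under the HepG2 label than in Huh7, and no INK4 gene was 2-fold apart between treated and untreated cells. CDKN2A (ENSG00000147889; chromosome 9, 21967753 to 21995301) encodes p16 and, from another start and reading frame, ARF, an inhibitor of MDM2; the gene's value sums both. It stood at 104 FPKM untreated and 113 FPKM treated under the HepG2 label and at 20.2 and 21.5 FPKM in Huh7. It was the most abundant of the 10 genes in untreated cells labelled HepG2, above 97.4% of coding genes, and untreated Huh7 was 4.94-fold lower. The log2 ratios of treated to untreated cells were 0.12 and 0.08. The antisense gene CDKN2B-AS1 shares 7.88% of the exonic bases of CDKN2A, and DINOL, on the other strand, 4.79% of those of CDKN1A. The sources used here do not give whether counting used strand, and the effect of these overlaps on the values was not tested.

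CDKN2B (ENSG00000147883; chromosome 9, 22002903 to 22009305), which encodes p15, an inhibitor known for its response to TGF-beta, stood at 6.26 and 6.99 FPKM under the HepG2 label and at 2.55 and 4.19 FPKM in Huh7. Its Huh7 log2 ratio of 0.55 was the highest of the 10 genes in that line, with a counting half-width of 0.29, and stayed short of 2-fold. CDKN2C (ENSG00000123080; chromosome 1, 50960745 to 50974634), the p18 gene, stood at 18.7 and 14.6 FPKM against 3.28 and 3.0 FPKM. CDKN2D (ENSG00000129355; chromosome 19, 10566462 to 10569059), the p19 gene, was low and even at 3.21, 4.33, 2.70 and 3.44 FPKM. CDKN2A made up 78.7% and 81.3% of the INK4 sum under the HepG2 label and 70.4% and 66.9% in Huh7.

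CCND1 and CCND3, the D-type cyclins with measurable transcript, were lower after treatment in both lines, and only CCND1 in Huh7 passed 2-fold. CCND1 (ENSG00000110092; chromosome 11, 69641087 to 69654474) encodes cyclin D1. It measured 46.2 FPKM before and 38.5 FPKM after treatment under the HepG2 label, and 66.4 and 24.1 FPKM in Huh7, where it was the most abundant of the 10 genes in both libraries. The untreated Huh7 library was the highest of the 4 and the treated one the lowest. Treated Huh7 was 2.68-fold lower (log2 ratio -1.42, counting half-width 0.09) and treated cells labelled HepG2 1.20-fold lower (log2 ratio -0.26). Of the exonic bases of CCND1, 10.3% overlap LTO1 on the other strand, which stood at 7.57, 6.17, 11.6 and 8.74 FPKM in the 4 libraries.

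CCND3 (ENSG00000112576; chromosome 6, 41934933 to 42050357), which encodes cyclin D3, measured 46.9 FPKM before and 25.3 FPKM after treatment under the HepG2 label, and 4.49 and 2.48 FPKM in Huh7. Both lines had the lower value after treatment. As for CDKN1A, both libraries labelled HepG2 lay above both Huh7 libraries, an order not counted over all genes. The log2 ratios were -0.87 and -0.66, that is 1.82-fold and 1.58-fold lower, short of 2-fold in both. At a lower threshold of 1.5-fold, CDKN1C joined CDKN1A among the higher genes (19.2% of all genes) and CCND3 was lower (8.76%) under the HepG2 label. In Huh7, CCND3 joined CDKN1A and CCND1 among the lower genes at 1.5-fold (7.63%), and none was 1.5-fold higher (15.4%). CCND2 (chromosome 12, 4273762 to 4305353), the cyclin D2 gene, stood at 0.00599, 0.0193, 0.0117 and 0.0202 FPKM, which is about 1 to 3 fragments a library, so no fold is given. Cyclin D transcript was split almost evenly between CCND1 (49.6%) and CCND3 (50.4%) in untreated cells labelled HepG2, whereas CCND1 made up 93.7% of it in untreated Huh7. The 3 genes summed to 93.1 FPKM untreated and 63.8 FPKM treated under the HepG2 label, and to 70.9 and 26.6 FPKM in Huh7.

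**Figure D3:**
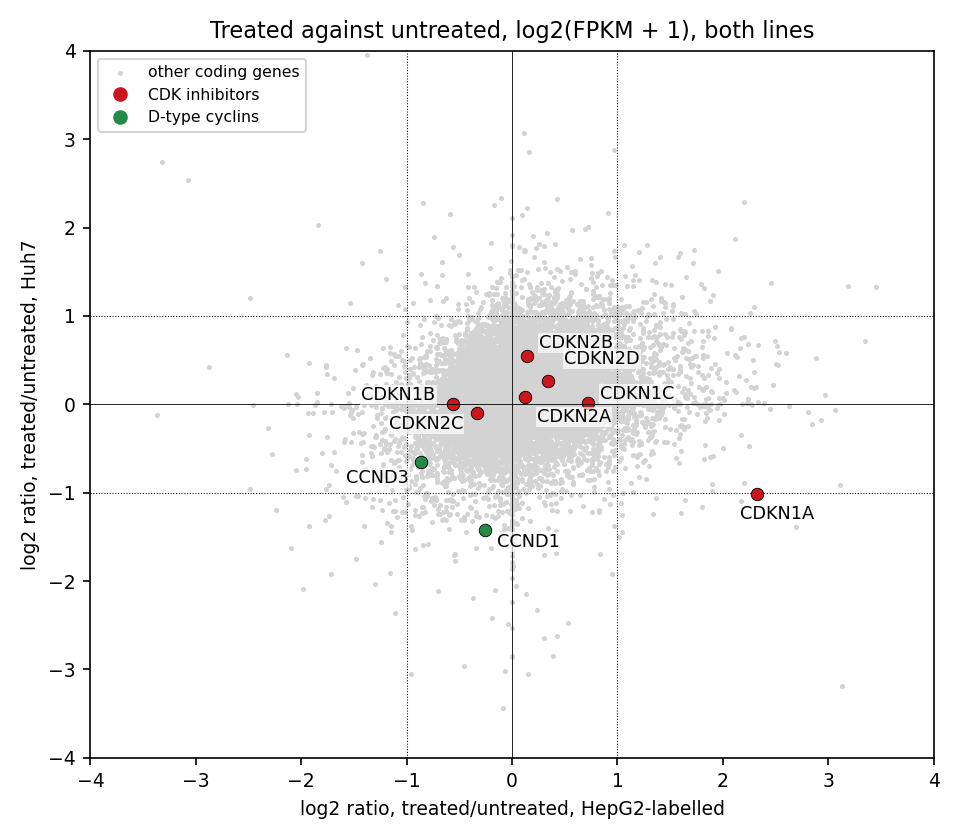
Log2 ratio of treated to untreated cells on the log2(FPKM + 1) scale, HepG2-labelled cells on the x axis and Huh7 on the y axis; grey points are other coding genes at 1 FPKM or more in at least 1 library, dotted lines mark 2-fold, and 10 genes lie beyond the axes. CDKN1A stands at 2.32 and -1.01, CCND1 at -0.26 and -1.42 and CCND3 at -0.87 and -0.66; CCND2 is not drawn.

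Between the untreated lines, 6 of the 9 genes at 1 FPKM or more were at least 2-fold lower in Huh7, namely CDKN1A, CDKN1C, CDKN2A, CDKN2B, CDKN2C and CCND3, against 17.2% of 12446 genes. With size factors CDKN2B fell short of 2-fold, which left 5. None was 2-fold higher in Huh7, against 17.5%. CCND1 was 1.43-fold higher there. Line and library cannot be told apart in this comparison, and it shares its untreated libraries with the treatment comparisons.

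The single test across the libraries asked whether both lines moved alike. In limma, with cell line as a block and 1 residual degree of freedom, 0 of 13030 genes (0%) had an adjusted p under 0.05, and 1534 genes (11.8%) had an unadjusted p under 0.05. CCND3, lower in both lines, had a mean log2 difference of -0.76 (SE 0.25) and a limma adjusted p of 0.329. CCND1, also lower in both lines, had -0.84 (SE 0.30) and a limma adjusted p of 0.353. For CDKN1A, with opposite directions in the lines, the mean was 0.65 (SE 0.65; limma adjusted p = 0.702). None of the 9 genes tested passed.

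The kinases that the 10 gene products act on were measured beside them. CDK4 stood at 120, 126, 157 and 180 FPKM in untreated and treated cells labelled HepG2 and untreated and treated Huh7, and was the steadier partner of cyclin D. CDK6, the other partner, stood at 48.4, 25.9, 4.46 and 6.82 FPKM, 9.06-fold lower in untreated Huh7 than in untreated cells labelled HepG2. CDK2, the target of CIP/KIP proteins, stood at 89.7 and 83.8 FPKM under the HepG2 label and at 26.7 and 13.9 FPKM in Huh7. For the lists that follow, the shares of all genes 2-fold higher and 2-fold lower were 6.7% and 2.43% under the HepG2 label. In Huh7 they were 3.88% and 2.19%. A list of G1 and S phase kinases and cyclins, which also holds CDC25 phosphatases, had 12 genes at 1 FPKM or more. The only one past 2-fold under the HepG2 label was CCNE2 (11.4 and 4.5 FPKM), a cyclin E that partners CDK2. In Huh7 the only one was CDC25B, a phosphatase that activates CDKs, at 50.7 and 116 FPKM. A further 2 genes were 2-fold lower there after scaling by size factors. Of the 12 in Huh7, 7 had log2 ratios above 0 and 5 below 0, CDK2 among the lower (-0.90). Of 7 mitotic kinase and cyclin genes none passed 2-fold in either line; CDK1 measured 82.3 and 44.4 FPKM, then 32.0 and 60.6 FPKM in Huh7. Of the other cyclins and CDKs, CDK18 alone of 24 passed under the HepG2 label (4.28 and 9.64 FPKM; 3 of 24 with a pseudocount of 0.1 FPKM and none with size factors) and none of 23 in Huh7 (1 with that pseudocount).

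Downstream, 11 of 27 E2F target genes of the G1/S step were at least 2-fold lower in treated Huh7 and none was 2-fold higher, where 2.19% and 3.88% of all genes were. The median log2 ratio of the 27 was -0.84, against 0.10 over all genes, and 26 were below 0. Under the HepG2 label none of 27 passed 2-fold, the median was -0.45, against 0.09 over all genes, and 23 were below 0. In Huh7, PCNA, which clamps polymerase to DNA, went from 202 FPKM untreated to 79.7 FPKM treated, and MCM3, a subunit of the replicative helicase, from 138 to 55.1 FPKM. UHRF1, which helps copy DNA methylation, stood at 13.9 and 5.13 FPKM, and GINS2, another helicase component, at 33.0 and 13.8 FPKM. E2F1 stood at 23.7 and 25 FPKM under the HepG2 label and at 42.2 and 26.7 FPKM in Huh7, and RB1, the retinoblastoma gene, at 12.4, 7.72, 5.42 and 5.42 FPKM. Of 21 retinoblastoma, E2F and DREAM genes, 1 was 2-fold higher and 1 lower under the HepG2 label, against 6.7% and 2.43% of all genes. The higher one was E2F7, a repressor among the E2F factors (8.01 and 17.5 FPKM, short of 2-fold with size factors). The lower one was E2F2 (7.12 and 3.04 FPKM, short of 2-fold after rescaling to the same sum). None of the 21 passed 2-fold in Huh7 (2 were lower with size factors).

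**Figure D4:**
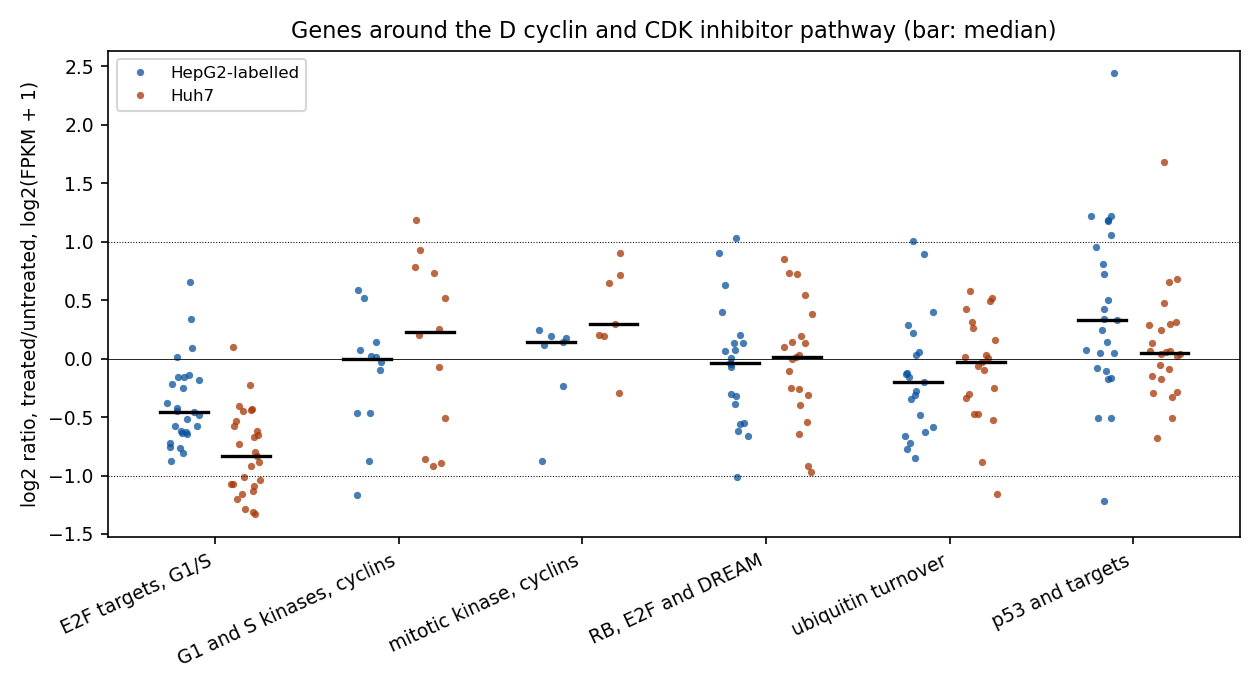
Log2 ratio of treated to untreated cells, log2(FPKM + 1) scale, for the genes of 6 lists at 1 FPKM or more in the line; points are genes, black bars medians and dotted lines 2-fold. The E2F targets have medians of -0.45 under the HepG2 label and -0.84 in Huh7, and the p53 list 0.33 and 0.05.

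A further list of 21 genes covers ubiquitin ligases and other turnover proteins of the inhibitors and D cyclins. Among them SKP2, the F-box protein that targets p27 and p21, stood at 72.0 and 39.6 FPKM under the HepG2 label. In Huh7 SKP2 stood at 86.0 and 38.0 FPKM. It was lower in both lines and, of the 21 genes, the only one past 2-fold in Huh7 (2 with size factors). Over all genes 2.19% were 2-fold lower there. The SKP2 cofactor CKS1B measured 45.4 and 26.2 FPKM under the HepG2 label, then 65.7 and 45.2 FPKM in Huh7. Under the HepG2 label the only one of the 21 past 2-fold was RNF123, a ligase known to act on p27 (7.58 and 16.2 FPKM). None passed with size factors, and 6.7% of all genes were 2-fold higher there.

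Other known targets of p53 were read beside CDKN1A. MDM2, a p53 target that degrades p53, measured 9.92 and 24.4 FPKM under the HepG2 label, then 10.6 and 13.2 FPKM in Huh7. Of 25 p53 list genes under the HepG2 label, 6 were 2-fold higher and 1 lower (median 0.33; 5 higher with size factors), where 6.7% and 2.43% of all genes were. Over 24 genes of the list in Huh7 the median was 0.05, but -0.05 with size factors, and none was 2-fold lower. The 6 higher ones under the HepG2 label were MDM2, XPC, PLK3, TNFRSF10B, BBC3, which promotes apoptosis (3.47 and 9.44 FPKM), and SESN2, a stress-response gene that ATF4 also drives (4.43 and 28.6 FPKM). PLK2 was the lower one there, at 58.5 and 24.5 FPKM.

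Of 29 other transcription regulators known for CDKN1A or CDKN1B, 4 were 2-fold higher under the HepG2 label and none lower, against 6.7% and 2.43% of all genes. With a pseudocount of 0.1 FPKM, or after rescaling the libraries to the same sum, 6 were higher. CEBPA, a liver factor known to restrain growth, stood at 0.514 and 6.34 FPKM there, against 229 and 228 FPKM in Huh7. DDIT3 and ATF4, factors of the stress response to amino acid shortage and misfolded protein, measured 6.30 and 34.2 FPKM, and 85.6 and 229 FPKM, under that label, and KLF10, a TGF-beta response factor, at 3.69 and 15.8 FPKM. In Huh7 these 3 stood at 11.8 and 13.7, 132 and 202, and 7.55 and 6.97 FPKM. MYC, a repressor of CDKN1A and driver of growth, stood at 4.92 and 5.58 FPKM under the HepG2 label and at 7.51 and 18.1 FPKM in Huh7, 1 of 2 genes of 27 past 2-fold there, both higher, against 3.88% of all genes. With size factors 1 of the 27 was higher, and with a pseudocount of 0.1 FPKM 1 was lower besides the 2 higher. Of 20 regulators known for CCND1, 2 were 2-fold higher under the HepG2 label and none lower, against 6.7% and 2.43% of all genes. They were the AP-1 subunits JUN (6.24 and 15.8 FPKM) and FOSL1 (14.4 and 52.5 FPKM). CCND1 was 1.20-fold lower there. None of 18 passed 2-fold in Huh7, though 1 was higher with a pseudocount of 0.1 FPKM.

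Around the INK4 genes on chromosome 9, MTAP, an enzyme of methionine salvage that is often deleted with CDKN2A, stood at 9.74, 11.2, 3.71 and 3.39 FPKM, so transcript of this stretch was read in all 4 libraries. The transcripts of CDKN2B-AS1 summed to 3.39 and 3.65 FPKM under the HepG2 label and to 0.658 and 0.960 FPKM in Huh7, the same order of lines as CDKN2A. Of 18 Polycomb and other regulators of the locus, ID1, an inhibitor of helix-loop-helix factors known to repress p16, was lower in both lines, at 127 and 28.9 FPKM and at 676 and 218 FPKM. Its relative ID2 was 2-fold lower in Huh7 (81.9 and 33.7 FPKM), where 2 of the 18 were lower, against 2.19% of all genes. With size factors or a pseudocount of 0.1 FPKM, 4 of the 18 were lower. KDM6B, a histone demethylase, stood at 1.23 and 4.73 FPKM under the HepG2 label, at least 2-fold higher after treatment.

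Around CDKN1C on chromosome 11, KCNQ1 stood at 26.8 and 20.0 FPKM under the HepG2 label and at 0.0179 and 0.0199 FPKM in Huh7, the same order of lines as CDKN1C. IGF2, a growth factor gene known to be expressed from the paternal copy, ran the other way, at 0.00698 and 0.0670 FPKM against 36.0 and 31.4 FPKM. Of 9 such neighbours at 1 FPKM or more in untreated cells, 1 was 2-fold higher and 3 lower in Huh7. Over all genes the shares were 17.5% and 17.2%, and the median log2 ratio of the 9 was 0.09. KCNQ1OT1, a long noncoding transcript known to silence CDKN1C on the paternal copy, had the opposite order, at 0.00382 and 0.00306 FPKM against 1.5 and 2.27 FPKM. Of 8 neighbours at 1 FPKM or more under the HepG2 label, 4 were 2-fold higher after treatment, against 6.7% of all genes, namely PHLDA2 (9.49 and 25.2 FPKM), SLC22A18 (4.5 and 13.1 FPKM), CARS (20.5 and 56.7 FPKM) and OSBPL5 (16.3 and 37.7 FPKM). In Huh7, SLC22A18 alone of 7 was (7.27 and 24.0 FPKM), against 3.88% of all genes.

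Among 13016 other coding genes at 1 FPKM or more in at least 1 library, likeness of pattern was measured as the Euclidean distance of log2(FPKM + 1) centred over the 4 libraries. Nearest to CDKN1A were CLDN4, a tight junction gene (distance 0.65; 4.85, 49.4, 3.10 and 1.17 FPKM), LCN2 (0.73) and CRMP1 (0.79). Nearest to CCND1 were MCM3 (0.16; 106, 77.3, 138 and 55.1 FPKM), SLC9A3R1 (0.19) and GRK4 (0.23). Distances over 4 libraries are a description only.

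In the authors' deposited tables, the KEGG p53 signaling pathway holds 2 of the 10 genes for cells labelled HepG2, CDKN1A and CCND3, among 13 listed genes (corrected p = 1), and 3 for Huh7, CDKN1A, CCND1 and CCND3, among 11 (corrected p = 0.983). The KEGG cell cycle in the authors' deposited tables holds the same 2 among 15 genes (corrected p = 1) and the same 3 among 26 (corrected p = 0.711). No other of the 10 genes appears in any Gene Ontology term or KEGG pathway of the authors' deposited tables for either line.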

How the data were processed

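FPKM values for coding genes and for long noncoding transcripts were deposited by the authors in 2 tables, each with 4 library columns, per the file headers. Per the labels' protocols, Trizol was used for the RNA and an Illumina TruSeq kit for the libraries. The submitters' processing notes name, without role or order, StringTie 1.3.1, HISAT2, Cuffdiff 2.1.1 and Bowtie2 2.2.8, besides GATK, SAMtools 0.1.18 and Picard 1.96. The sources used here do not give aligner settings or the build, and gene positions are those of the file, which overlap the GENCODE 29 (GRCh38) genes of the same identifiers for all 10 genes. The authors also deposited enrichment tables with counts of genes and p-values per Gene Ontology term and KEGG pathway, per the file headers.

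A count model was not fitted, since FPKM are normalized values. Fragments were inferred from the most common low value of FPKM times length in single-transcript genes (1% tolerance), and a gene's fragments from the median length of its annotated coding transcripts. The 95% Poisson half-widths made from them cover counting error only. Ratios were log2((treated FPKM + 1)/(untreated FPKM + 1)), for genes reaching 1 FPKM in either library compared, and genes at least 2-fold apart were counted. The test, in R 4.3.3, used limma 3.58.1 with cell line as a block and its trend option, Benjamini-Hochberg adjusted over all genes with a threshold of 0.05, tested on simulated data; pairing by cell line comes from the labels. Nothing says that libraries came from separate cultures.

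The 10 genes and the 19 coding gene lists were chosen with earlier results of these data known. The text names all 10 genes, up to 4 genes past 2-fold per list with the largest ratio in either line, fixed partners (CDK4, CDK6, CDK2, RB1, E2F1, MDM2, SKP2, MYC and MTAP) and the 3 genes nearest in pattern, except for some results not reported here; CDK1, CKS1B, XPC, PLK3, TNFRSF10B, KCNQ1 and the long noncoding genes fall outside that rule and were added after their values were seen. Of 11 kinase assembly partners and relatives of the inhibitors, 8 under the HepG2 label and 9 in Huh7 were at 1 FPKM or more. None of these passed 2-fold, and of the 5 housekeeping genes none did. With a pseudocount of 0.1 FPKM, or after rescaling to the same sum, 1 of the 8 partners and relatives was 2-fold higher under the HepG2 label. Alternatives were a pseudocount of 0.1 FPKM, no minimum or a minimum of 5 FPKM, rescaling to 1 sum, size factors and a threshold of 1.5-fold; those for the lists were chosen after seeing the data.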

Additional observations from a re-analysis of the deposited data

Results flagged for a closer look

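CDKN1A had opposite directions in the 2 lines, with a log2 ratio of 2.32 in cells labelled HepG2 and -1.01 in Huh7. It is set out here because the 2 lines, each with a single pair of libraries, passed 2-fold in opposite directions; the difference between the lines was not tested.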

How the results depend on the processing

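For the 10 genes, the calls of treated against untreated cells held with a pseudocount of 0.1 FPKM, with no minimum, with a minimum of 5 FPKM, after rescaling and with size factors: CDKN1A higher under the HepG2 label, CDKN1A and CCND1 lower in Huh7. At 1.5-fold, 2 genes were higher under the HepG2 label (CDKN1C joined) and 1 lower (CCND3), and CCND3 joined those lower in Huh7. Over the pseudocount and both scalings, the log2 ratio of CDKN1A ranged from 2.26 to 2.37 under the HepG2 label and from -1.12 to -1.01 in Huh7. Of 90 pairs of a log2 ratio and an alternative, 85 kept their sign, and the 5 others were log2 ratios short of 2-fold. In treated against untreated Huh7 they were CDKN1B after rescaling and with size factors, and CDKN1C and CDKN2A with size factors. Between the untreated lines it was CDKN1B with size factors (log2 ratio -0.03 as reported and 0.08 with size factors). Size factors moved the median log2 ratio of all genes in Huh7 from 0.10 to -0.00.

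Over all genes, a pseudocount of 0.1 FPKM gave 1331 higher genes under the HepG2 label (794 as reported), and 970 higher (464) and 422 lower (261) in Huh7. A threshold of 1.5-fold gave 2277 higher and 1038 lower (288) under the HepG2 label, 1841 higher and 912 lower in Huh7, and 3629 lower (2145) in untreated Huh7. After rescaling, limma called 1 gene, none of the 10 (smallest adjusted p = 0.0154). Without a filter, or with a pseudocount of 0.1 FPKM, limma called 0 genes (1307 and 1538 at an unadjusted p under 0.05). With no replicate block limma called 0 genes and gave 112 an unadjusted p under 0.05, and the block changed no call. The 1 library a group limits every value, and CDKN1C in Huh7 and CCND2 are limited by depth.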

Other observations

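The 15 genes that were at least 2-fold higher under the HepG2 label and 2-fold lower in Huh7 were chosen after their values were seen. Besides CDKN1A they include the actin-binding genes TPM4 (54.3 and 138 FPKM, then 249 and 105 FPKM in Huh7) and MICAL2 (5.57 and 19.5, then 133 and 62.3 FPKM), and MYD88, an adaptor of innate immune receptors (6.41 and 14.2, then 43.4 and 15.3 FPKM). A further 12 genes had the reverse order, among them TOP2A, the topoisomerase of dividing cells (71.8 and 33.5, then 15.9 and 35.7 FPKM). The transcripts of PVT1, a long noncoding gene beside MYC, summed to 13.7 and 26.2 FPKM under the HepG2 label and to 1.88 and 2.46 FPKM in Huh7.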
